A study of Mus musculus with 4 samples.

Results

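Complement components and receptors were examined as a group of 9 genes, of 24421 in the count tables, in mouse J558 allografts given vehicle or TAK-931. They were taken by symbol: the C1q chains C1qa, C1qb and C1qc, the thioester proteins C3 and C4b, the alternative pathway factors Cfb and Cfp, and the anaphylatoxin receptors C3ar1 and C5ar1. J558 is a BALB/c plasmacytoma line, a tumour of antibody-secreting B lineage cells, grown here under the flank skin of female, immune-competent BALB/c mice aged 4 weeks. The vehicle group (Vehicle-1, Vehicle-2) received 0.5% methylcellulose by mouth, and the TAK-931 group (TAK-931-1, TAK-931-2) received daily oral doses of 60 mg/kg of TAK-931, an inhibitor of the kinase CDC7, both for 6 days. RNA of the whole tumour was sequenced, with n = 2 libraries per group that the labels name as separate allografts (called tumours here), so host cells and J558 cells are mixed, and in such bulk samples more cells of a type and more RNA per cell cannot be told apart.

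Complement is a cascade of plasma and tissue proteins that tags particles and cells, recruits leukocytes and can form a membrane pore. C1q recognises immune complexes and dying cells and starts the classical pathway through C1r, C1s, C4 and C2. C3 is the point where the classical, lectin and alternative pathways meet, and factor B and properdin, encoded by Cfb and Cfp, form and stabilise the alternative C3 convertase. The small fragments C3a and C5a act through the receptors encoded by C3ar1 and C5ar1. The liver makes most circulating complement, whereas C1q comes mainly from macrophages and dendritic cells, and C3, C4, factor B and properdin are also made by macrophages, fibroblasts or other tissue cells.

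All 9 genes had higher CPM (gene counts scaled for the library total) in both TAK-931 tumours than either vehicle tumour did. Groups separated in this direction for 31.3% of the 13669 genes tested. The fitted log2 fold changes ran from 2.16 for C5ar1 to 4.11 for C3ar1, with a median of 3.30 against 0.02 over all genes tested. By edgeR's quasi-likelihood test, all 9 had an unadjusted p under 0.05, against 11.6% of tested genes that were higher at this level. None of the 9 passed an adjusted p of 0.05, and neither did any other gene (0.0% of those tested). Adjusted p was 0.275 for 8 of the 9 and 0.276 for C5ar1. At least 2-fold the vehicle mean in both TAK-931 tumours was reached by 7 of the 9 (not Cfp and C5ar1), against 11.2% of tested genes. With the replicate number as a block, edgeR called C3 and Cfb at an adjusted p under 0.05, against 1.05% of tested genes. DESeq2 called all 9 at its adjusted p under 0.05, against 9.21% of tested genes called higher, and limma-voom called none of them, with 7 at an unadjusted p under 0.05 against 5.72% of tested genes higher at that level.

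TAK-931-1 had the highest level of each member. Each of the 9 genes was between 3.46-fold (C3) and 5.32-fold (C1qb) higher in TAK-931-1 than in TAK-931-2. Of all tested genes, 46.5% were higher in TAK-931-1. Vehicle-1 divided by Vehicle-2 lay between 0.721 (C4b) and 2.21 (Cfb). Without TAK-931-1, the median log2 fold change of the 9 genes was 1.61 and all 9 stayed positive. That fit has 1 TAK-931 library and holds no spread between TAK-931 tumours, so only its effect sizes are given. TAK-931-1 stood apart in its makeup as well: Trap1a, a tumour antigen used to mark J558 cells, had 1118 and 1093 CPM under vehicle, 1284 CPM in tumour TAK-931-2 and 344.5 CPM in tumour TAK-931-1.

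**Figure D1:**
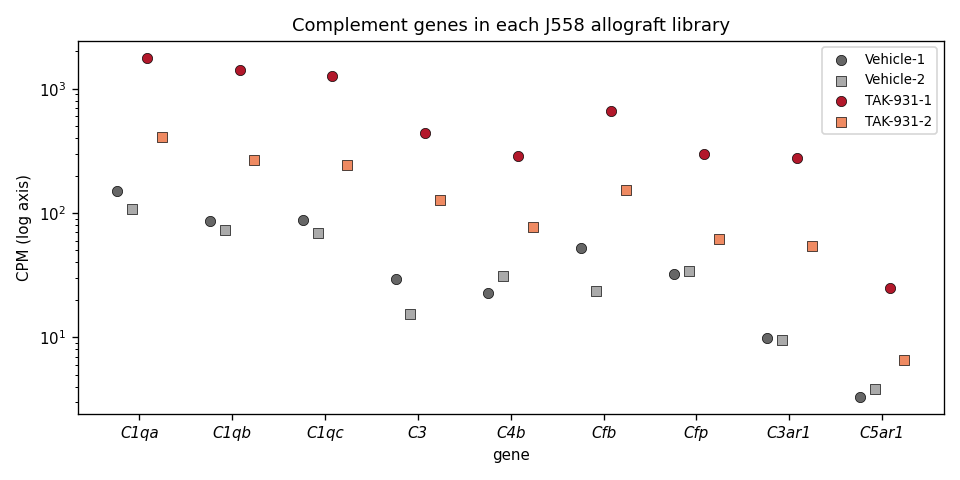
CPM of the 9 complement genes on a log axis, with 1 point per library (grey, vehicle-treated; red and orange, TAK-931-treated). For every gene TAK-931-1 is highest and TAK-931-2 is second, as for C1qa with 1781 and 411 CPM against 149.7 and 107.6 CPM in the vehicle tumours.

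The C1q chains were the most abundant members per kilobase of exon. C1qa had 138.3 and 99.4 CPM per kilobase under vehicle, 1646 in tumour TAK-931-1 and 379.8 in tumour TAK-931-2, whereas the least abundant member, C5ar1, had 1.28 and 1.49, 9.73 and 2.55 CPM per kilobase in the same order. The 3 genes lie side by side within 18.7 kb on the minus strand of chromosome 4 (mm10): C1qb at 136880145 to 136886177, C1qc at 136889802 to 136892914 and C1qa at 136895916 to 136898844, each with 3 exons. RefSeq windows of the 250 bases before the start site (GRCm38.p6) were matched for 6 of the 9 genes: C1qb, C1qc, C3, C3ar1, C5ar1 and Cfp. The C5ar1 window (chr7:16259339-16259588) lies partly inside that gene as counted, which spans 16246743 to 16259540. The 6 windows were searched on both strands for 5 motifs of factors known in myeloid and inflammatory gene control. The letters were GAAA and GAAA with any 2 bases between (interferon-stimulated response element), TTCNNNGAA (gamma-activated site), GGGA and CC with any 4 bases between (kappaB-type site), GAGGAAGT (PU.1) and TTGCNNAA (C/EBP), where N is any base. The windows of the neighbouring C1qb and C1qc genes and of C3 are shown because they were the 3 with any match, and capitals mark the matches. The windows are chr4:136886201-136886450, chr4:136892915-136893164 and chr17:57228137-57228386, all on the minus strand and written 5′ to 3′.
C1qb: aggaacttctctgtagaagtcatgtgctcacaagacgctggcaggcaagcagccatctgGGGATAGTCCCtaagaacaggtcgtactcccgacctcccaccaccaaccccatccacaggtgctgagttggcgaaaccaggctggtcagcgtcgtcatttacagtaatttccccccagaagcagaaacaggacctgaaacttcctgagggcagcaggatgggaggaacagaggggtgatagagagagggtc
C1qc: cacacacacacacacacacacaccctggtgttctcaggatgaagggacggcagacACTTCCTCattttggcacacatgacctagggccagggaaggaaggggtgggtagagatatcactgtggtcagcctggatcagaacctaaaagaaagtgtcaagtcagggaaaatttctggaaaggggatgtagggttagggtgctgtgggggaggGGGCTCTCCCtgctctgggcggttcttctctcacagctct
C3: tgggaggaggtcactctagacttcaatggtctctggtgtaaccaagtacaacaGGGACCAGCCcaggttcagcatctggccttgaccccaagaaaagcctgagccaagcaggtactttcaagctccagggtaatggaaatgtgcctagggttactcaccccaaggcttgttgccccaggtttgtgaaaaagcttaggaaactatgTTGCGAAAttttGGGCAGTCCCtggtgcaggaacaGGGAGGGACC

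The kappaB-type letters stood in these 3 of the 6 windows, against 17.6% of 32851 promoter windows of the same length. In C1qb the 2 matches lie on opposite strands, start 191 and 190 bases before the start site and overlap in 1 stretch. PU.1 letters were found only in C1qc among the 6, and 2.44% of all windows hold them. C/EBP letters were found only in C3, with 9.56% of all windows holding them. The interferon-stimulated response element letters (2.98% of all windows) and the gamma-activated site letters (7.02%) matched none of the 6, which says only that these letters are not in these windows.

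C1qa encodes the A chain of C1q and had 149.7 and 107.6 CPM in Vehicle-1 and Vehicle-2, 1781 CPM in tumour TAK-931-1 and 411 CPM in tumour TAK-931-2. The group means were 128.6 ± 29.8 CPM for vehicle and 1096 ± 969 CPM for TAK-931 (SD, n = 2), and the fitted log2 fold change was 3.11 (SE 0.84). The SD of the TAK-931 group is nearly as large as its mean, yet its lower library exceeded both vehicle tumours. C1qb, for the B chain, had 86.6 and 73.3 CPM under vehicle, 1414 CPM in tumour TAK-931-1 and 265.8 CPM in tumour TAK-931-2. C1qc, for the C chain, had 87.5 and 68.5 CPM under vehicle, 1273 CPM in tumour TAK-931-1 and 242.4 CPM in tumour TAK-931-2. The log2 fold change was 3.41 (SE 0.93) for C1qb and 3.30 (SE 0.92) for C1qc, with unadjusted p of 0.0183 and 0.0202 by edgeR against 0.0179 for C1qa. In the fits without TAK-931-1, the log2 fold changes of C1qa, C1qb and C1qc were 1.61, 1.67 and 1.57. Together the 3 genes made up 0.0324% and 0.0249% of all counts under vehicle, 0.447% in tumour TAK-931-1 and 0.0919% in tumour TAK-931-2.

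C1q is assembled from equal numbers of A, B and C chains, so their proportions were compared per length (CPM per kilobase of exon). C1qa supplied between 42.6% and 45.7% of the C1q signal per kilobase under vehicle, 39.3% in tumour TAK-931-1 and 44.2% in tumour TAK-931-2. C1qb supplied 26.9% and 29.6% under vehicle, 31.8% in tumour TAK-931-1 and 29.1% in tumour TAK-931-2. C1qc stayed between 26.7% and 28.9% in the 4 libraries. C1qa was the largest share in each library, and TAK-931-2 lay within the range of the vehicle tumours for C1qa and C1qb.

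C3 encodes the central component of the cascade (chromosome 17, 57203967 to 57228136, 41 exons). It had 29.3 CPM in Vehicle-1, 15.3 CPM in Vehicle-2, 440.8 CPM in tumour TAK-931-1 and 127.2 CPM in tumour TAK-931-2. Both TAK-931 tumours exceeded the higher vehicle tumour by more than the vehicle tumours differed from each other. The means were 22.3 ± 9.88 and 284 ± 222 CPM (SD, n = 2). The log2 fold change was 3.69 (SE 0.81) with an unadjusted p of 0.00873 by edgeR, and it was 2.44 without TAK-931-1.

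C4b encodes complement C4, which is cleaved by C1s after C1q binds (chromosome 17, 34728381 to 34743897, 41 exons). It had 22.5 and 31.2 CPM under vehicle, 286.1 CPM in tumour TAK-931-1 and 77.9 CPM in tumour TAK-931-2, with a log2 fold change of 2.78 (SE 0.75) that was 1.47 without TAK-931-1. C4b was the member in which Vehicle-2 exceeded Vehicle-1 most. Its near-identical neighbour C4a, looked at because uniquely placed reads can be lost or shared between such copies, had 25 and 37 counts under vehicle, 86 in tumour TAK-931-1 and 73 in tumour TAK-931-2. C4a made up 6.13% and 6.62% of the counts of both copies under vehicle, 5.38% in tumour TAK-931-2 and 1.51% in tumour TAK-931-1. The C4b level is therefore uncertain to the extent that reads could not be assigned to a single copy.

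Cfb encodes factor B, the protease of the alternative C3 convertase (chromosome 17, 34856374 to 34862514, 18 exons), and lies in the same 134.1 kb stretch as C4b. It had 51.9 CPM in Vehicle-1, 23.5 CPM in Vehicle-2, 667.6 CPM in tumour TAK-931-1 and 153.7 CPM in tumour TAK-931-2. Cfb varied most of the 9 genes between the vehicle tumours, and the lower TAK-931 tumour was still above both. The log2 fold change was 3.46 (SE 0.93), 1.96 without TAK-931-1 and 4.14 without Vehicle-1. Cfp encodes properdin, which stabilises that convertase (chromosome X, 20925535 to 20931524, 9 exons). It had 32.0 and 34.3 CPM under vehicle, 296.9 CPM in tumour TAK-931-1 and 62.2 CPM in tumour TAK-931-2. The log2 fold change of Cfp was 2.46 (SE 0.83) with an unadjusted p of 0.0381 by edgeR. It was 0.84 without TAK-931-1.

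C3ar1, the receptor gene for C3a (chromosome 6, 122847140 to 122856157, 2 exons), had the largest log2 fold change of the 9 genes. It had 9.88 and 9.57 CPM under vehicle, 276.5 CPM in tumour TAK-931-1 and 54.5 CPM in tumour TAK-931-2, which are 28.4-fold and 5.60-fold the vehicle mean. The log2 fold change was 4.11 (SE 0.93), the unadjusted p by edgeR was 0.00955, and the value was 2.42 without TAK-931-1. C5ar1, the receptor gene for C5a (chromosome 7, 16246743 to 16259540, 3 exons), had the smallest. It had 3.29 and 3.83 CPM under vehicle, 25.0 CPM in tumour TAK-931-1 and 6.55 CPM in tumour TAK-931-2, which are 7.03-fold and 1.84-fold the vehicle mean. The fitted log2 fold change of C5ar1 was 2.16 (SE 0.80), the unadjusted p by edgeR was 0.0499, and the value was 0.81 without TAK-931-1. C5ar1 rested on the fewest counts of the members, 56 and 64 in the vehicle tumours.

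The balance of the 2 receptor transcripts differed between the groups. Per kilobase of exon, C3ar1 was 1.79 and 1.495 times C5ar1 under vehicle, 6.61 times in tumour TAK-931-1 and 4.97 times in tumour TAK-931-2. This ratio does not depend on library scaling, the groups did not overlap, and no test of it was made. The ratio of C3 to C4b per kilobase was 1.36 and 0.515 under vehicle (Vehicle-1, Vehicle-2), 1.62 in tumour TAK-931-1 and 1.72 in tumour TAK-931-2, so the vehicle tumours differed from each other more than Vehicle-1 did from TAK-931 tumours. The ratio of Cfb to C3 per kilobase lay between 2.26 and 3.32 in the 4 libraries.

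**Figure D2:**
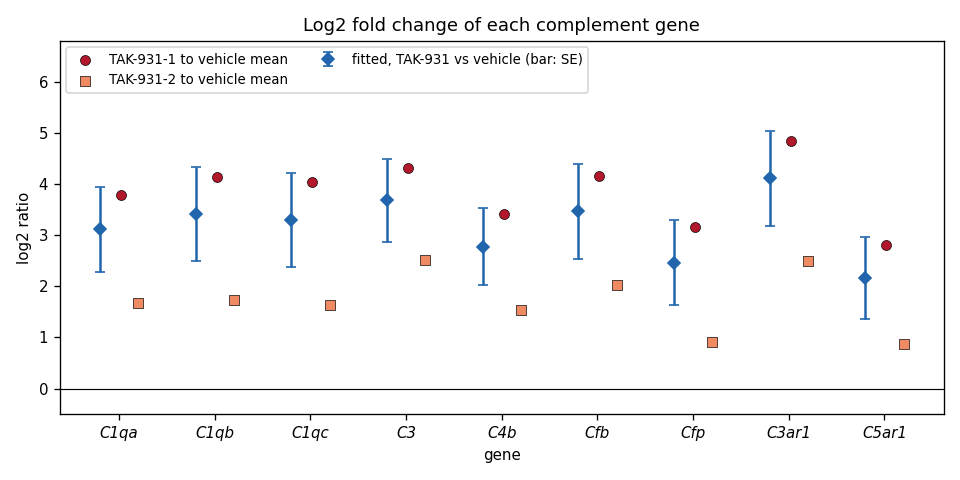
Fitted log2 fold change of TAK-931 against vehicle for each gene (blue diamonds, bars are SE) beside the log2 ratio of each TAK-931 tumour to the vehicle mean (circles and squares). Every ratio is above 0, and TAK-931-2 runs from 0.88 for C5ar1 to 2.51 for C3.

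Macrophage markers moved with the complement genes. Of 13 macrophage markers, 12 were higher in both TAK-931 tumours than in both vehicle tumours, against 31.3% of tested genes. By edgeR, 10 of the 13 had an unadjusted p under 0.05, against 11.6% of tested genes that were higher at this level. The 13 markers summed to 367.8 and 345.6 CPM under vehicle, 5366 CPM in tumour TAK-931-1 and 966.3 CPM in tumour TAK-931-2. Adgre1, which encodes F4/80, had 23.3 and 15.9 CPM under vehicle, 308.6 CPM in tumour TAK-931-1 and 54.5 CPM in tumour TAK-931-2. Csf1r, the receptor gene for the macrophage growth factor, had 42.2 and 38.2 CPM, 569.4 CPM and 105.8 CPM in the same order. The marker outside the pattern was Cd163, with 3.998 and 3.59 CPM under vehicle, 16.5 CPM in tumour TAK-931-1 and 0.849 CPM in tumour TAK-931-2. The part of macrophage RNA in the complement differences was not tested.

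Each member was also expressed relative to the mean log2 CPM of the 13 macrophage markers in the same library, as a description. On this log2 scale the mean of the 3 C1q chains was 2.80 and 2.37 under vehicle, 2.92 in tumour TAK-931-1 and 3.10 in tumour TAK-931-2. The difference between the group means was 0.42, with SDs of 0.31 and 0.13 (n = 2), and it was 0.17 relative to Adgre1 and Csf1r alone. C3ar1 had −0.59 and −0.71 under vehicle, 0.50 in tumour TAK-931-1 and 0.65 in tumour TAK-931-2, a difference of 1.22. C3 had 0.97 and −0.03 under vehicle (Vehicle-1, Vehicle-2), 1.17 in tumour TAK-931-1 and 1.88 in tumour TAK-931-2.

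Relative to the macrophage markers, both TAK-931 tumours were above both vehicle tumours for 4 of the 9 genes (C1qb, C1qc, C3 and C3ar1), against 2.41% of tested genes. Both were below for Cfp and C5ar1, against 84.4% of tested genes, and the groups overlapped for C1qa, C4b and Cfb. C5ar1 had −2.14 and −2.01 under vehicle, −2.96 in tumour TAK-931-1 and −2.38 in tumour TAK-931-2.

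**Figure D3:**
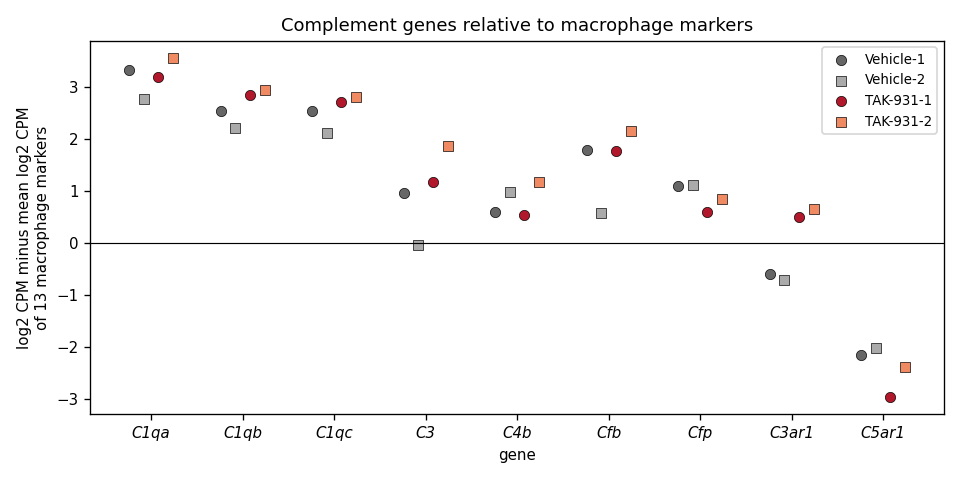
Log2 CPM of each complement gene minus the mean log2 CPM of 13 macrophage markers in the same library (0.1 CPM added), with 1 point per library. The groups are apart upwards for C1qb, C1qc, C3 and C3ar1, and downwards for Cfp and C5ar1.

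Markers of other cell types also differed between these tumours. Of 8 fibroblast markers, 7 were higher in both TAK-931 tumours than in both vehicle tumours, against 31.3% of tested genes. The fibroblast list summed to 1868 and 2137 CPM under vehicle, 14350 CPM in tumour TAK-931-1 and 5308 CPM in tumour TAK-931-2. Of 5 monocyte markers, 4 were higher in both TAK-931 tumours in this way, with summed levels of 92.3 and 62.6 CPM, 745.2 CPM and 220.2 CPM in the same order. The exception, F13a1, had 1.88 and 8.08 CPM under vehicle, 41.9 CPM in tumour TAK-931-1 and 5.22 CPM in tumour TAK-931-2. Of 13 genes induced by interferon-gamma, all 13 were higher in both TAK-931 tumours than in both vehicle tumours, against 31.3% of tested genes. By edgeR, 10 of the 13 had an unadjusted p under 0.05, against 11.6% of tested genes that were higher at this level. The interferon-gamma list summed to 935.9 and 596.1 CPM under vehicle, 3939 CPM in tumour TAK-931-1 and 1773 CPM in tumour TAK-931-2. Vehicle-1 exceeded Vehicle-2 in this sum, as it did for the C1q chains, C3, Cfb and C3ar1 but not for C4b, Cfp or C5ar1. The T cell markers summed to 29.0 and 20.7 CPM, 1049 CPM and 89.8 CPM, and the 7 endothelial markers to 272.8 and 292.1 CPM, 861.8 CPM and 290.5 CPM. The dendritic cell markers summed to 13.4 and 11.1 CPM, 59.1 CPM and 20.8 CPM. Relative to the mean log2 CPM of the interferon-gamma list, C3 had −0.69 and −0.10 under vehicle, 0.78 in tumour TAK-931-1 and 0.16 in tumour TAK-931-2, and the groups overlapped for the other 8 members. Both TAK-931 tumours were above both vehicle tumours on this scale for 1.21% of tested genes. The part of these cells and genes in the complement differences was not tested.

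Hepatocyte markers were at or near 0. Of 8 hepatocyte markers, 5 had 0 counts in all 4 libraries, and the list summed to at most 0.511 CPM in any library. Among neutrophil markers Elane had 0 counts throughout, and the whole list summed to 14.5 and 16.8 CPM under vehicle, 129 CPM in tumour TAK-931-1 and 27.1 CPM in tumour TAK-931-2. Most of the sum in TAK-931-1 was Csf3r, the receptor gene for granulocyte colony-stimulating factor, with 5.06 and 4.31 CPM under vehicle, 111.1 CPM in tumour TAK-931-1 and 15.7 CPM in tumour TAK-931-2. S100a8 had 0.235 and 1.32 CPM under vehicle, 5.11 CPM in tumour TAK-931-1 and 0 CPM in tumour TAK-931-2. The part of neutrophils in the complement differences was not tested. Of the B cell markers, Pax5 had 0 counts in all libraries, while Ms4a1 had 30.3 and 30.1 CPM under vehicle, 12.9 CPM in tumour TAK-931-1 and 54.8 CPM in tumour TAK-931-2. The 7 plasma cell and J558 markers summed to 8842 and 9455 CPM under vehicle, 4376 CPM in tumour TAK-931-1 and 13380 CPM in tumour TAK-931-2. This sum was lowest in the tumour where the complement genes were highest, and its part in the result was not tested. The cell line's own plasma cell markers were thus present in every library. Skeletal muscle markers summed to 75.1 and 78.8 CPM, 489 CPM and 8.67 CPM.

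The wider complement system was covered by a list of 48 further genes. Of these, 29 passed the filter on low counts. C1s2, C6, Cd55, Colec11 and Hc had at most 8 counts in either vehicle tumour, so they passed only through the TAK-931 tumours where they are high, and the counts over the 29 genes are a description. Of the 29, 0 passed an adjusted p of 0.05 in edgeR or limma-voom, whereas DESeq2 called 10, all higher, with 3 of those 5 genes among them (C1s2, C6 and Cd55), against 9.21% of tested genes. With the replicate number as a block, edgeR called C2 (adjusted p = 0.0474), against 1.05% of tested genes. At an unadjusted p under 0.05 in edgeR, 12 of 29 were higher and 0 lower, against 11.6% of tested genes higher and 6.55% lower. The 12 include 4 of those 5 genes, all but Hc. With at least 10 counts required in every library, 9 of 21 were higher against 12.3% of tested genes, and limma-voom gave 4 of 29 against 5.72%. Both TAK-931 tumours were above both vehicle tumours for 16 of the 29, including all of those 5 genes, and below for 4, against 31.3% and 30.6% of tested genes. Without TAK-931-1, 30 of the genes passed the filter, and only effect sizes are given from that fit.

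The genes acting directly after C1q were mostly higher. C1ra, for the protease C1r, had 32.2 and 24.2 CPM under vehicle, 148.7 CPM in tumour TAK-931-1 and 59.7 CPM in tumour TAK-931-2, with a log2 fold change of 1.90 (SE 0.55) that was 1.01 without TAK-931-1. C1s1, for the protease C1s, had 10.3 and 7.30 CPM under vehicle, 170.1 CPM in tumour TAK-931-1 and 29.5 CPM in tumour TAK-931-2, with a log2 fold change of 3.53 (SE 0.98) that was 1.68 without TAK-931-1. C2, the partner of C4 in the classical convertase, had 8.94 and 7.18 CPM, 133.1 CPM and 35.6 CPM in the same order, and the log2 fold change was 3.40 (SE 0.77), or 2.08 without TAK-931-1. The groups did not overlap for C1ra, C1s1 or C2. They did for C1rb, a second C1r gene outside the rule for named genes, which had 1.59 and 1.02 CPM under vehicle, 5.61 CPM in tumour TAK-931-1 and 1.15 CPM in tumour TAK-931-2. For C1rb the fitted log2 fold change of 1.40 turned to −0.24 when TAK-931-1 was left out. In the lectin pathway, Fcna, for ficolin A, had 7.996 and 12.0 CPM under vehicle, 19.3 CPM in tumour TAK-931-1 and 4.49 CPM in tumour TAK-931-2, with the TAK-931 tumours on opposite sides. Mbl1, Mbl2 and Colec10 had 0 counts in all 4 libraries. A floor of 3 counts is 0.153 to 0.182 CPM per library, which covers counting error only and is too low a limit if both mates of a pair were counted.

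Factor D and the terminal pathway genes were sparse under vehicle, unlike the alternative pathway members Cfb and Cfp. Cfd, for factor D, had 14 and 21 counts under vehicle, 490 in tumour TAK-931-1 and 4 in tumour TAK-931-2, and the log2 fold change of 3.63 (SE 2.01) turned to −2.13 when TAK-931-1 was left out. Factor D is also known as adipsin, and the adipocyte list summed to 44.7 and 67.7 CPM under vehicle, 255.3 CPM in tumour TAK-931-1 and 29.8 CPM in tumour TAK-931-2, mostly from Fabp4, and its part in the Cfd difference was not tested. Adipoq had 0.235 and 0.239 CPM, 2.55 CPM and 0.121 CPM in the same order. Cidec, the second most abundant marker of that list, was instead lower in both TAK-931 tumours, with 4.47 and 5.80 CPM, 3.47 CPM and 2.79 CPM. C6, a pore component, had 8 and 8 counts under vehicle, 288 in tumour TAK-931-1 and 51 in tumour TAK-931-2. Hc, the mouse gene for C5, had 1 and 4 counts under vehicle, 17 in tumour TAK-931-1 and 12 in tumour TAK-931-2, so few that no fold change is given. C8a, C8b and C9, needed with them for the pore, had 0 counts in all libraries, and C8g had 3.59 and 3.71 CPM under vehicle, 2.50 CPM in tumour TAK-931-1 and 2.61 CPM in tumour TAK-931-2.

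The regulators did not share a direction. Serping1, for the C1 inhibitor, had 47.2 and 39.4 CPM under vehicle, 747.9 CPM in tumour TAK-931-1 and 191.2 CPM in tumour TAK-931-2, and the log2 fold change was 3.46 (SE 0.79), or 2.08 without TAK-931-1. Among membrane regulators Cd55, for decay-accelerating factor and named here after its values were seen, had 8 counts in each vehicle tumour, 243 in tumour TAK-931-1 and 32 in tumour TAK-931-2. Cr1l, for the rodent C3 regulator Crry, had 81.2 and 78.4 CPM under vehicle, 60.8 CPM in tumour TAK-931-1 and 61.9 CPM in tumour TAK-931-2, with a log2 fold change of −0.39 (SE 0.20). Cd59a, for the inhibitor of pore assembly, had 15.7 and 18.5 CPM, 13.6 CPM and 16.3 CPM, with overlapping groups. The 4 genes lower in both TAK-931 tumours were C8g, Cr1l, C1qbp and C4bp, the last chosen after its values were seen, and none had an unadjusted p under 0.05.

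Among the other receptors, the integrin chains of the C3 fragment receptors were higher and the remaining genes were not alike. Itgax, for the alpha chain of complement receptor CR4, had 13.6 and 11.01 CPM under vehicle, 230.4 CPM in tumour TAK-931-1 and 44.6 CPM in tumour TAK-931-2. Itgb2, for the shared beta chain, had 33.3 and 26.4 CPM, 695 CPM and 119.8 CPM in the same order, with a log2 fold change of 3.79 (SE 0.98) that was 1.94 without TAK-931-1. Cd93, once described as a C1q receptor and present on endothelial cells, had 30.6 and 37.2 CPM under vehicle, 250 CPM in tumour TAK-931-1 and 39.4 CPM in tumour TAK-931-2, with a log2 fold change of 2.12 that was 0.15 when TAK-931-1 was left out. C1qbp, a mainly mitochondrial protein that binds C1q in vitro, had 260.5 and 276.7 CPM, 112.4 CPM and 200.6 CPM in the same order, with a log2 fold change of −0.81 (SE 0.33).

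Genes whose profile over the 4 libraries lay nearest to each member were found by the Euclidean distance between centred log2 CPM values, among 9613 genes with a mean log2 CPM over 3. These are descriptions over 4 libraries that share the contrast between TAK-931-1 and the rest. Nearest to the C1q mean were Tlr7 (distance 0.10), Rassf5, Fcgr3, Irf2bp2 and Abr. Tlr7 had 3.59 and 2.99 CPM under vehicle, 55.9 CPM in tumour TAK-931-1 and 11.5 CPM in tumour TAK-931-2. C3 had no neighbour as close, with Ltb at 0.23, then Id2, Slfn2, Nod1 and Ptprc. C4b was nearest to Timp2 (0.14), Meg3, Ecm1, Rin3 and Aebp1. Cfb was nearest to Cd180 (0.05), Plxdc2, Hpse, Il2rg and Apbb1ip, all with Vehicle-1 above Vehicle-2. Cfp was nearest to Nbl1 and Mpp1 (0.08 each), Orai2, Mdfic and Ptprb. C3ar1 was nearest to Adcy7 (0.11), Tbc1d2b, Arl4c, Adrbk2 and Myo1f, and C5ar1 to Folr2 (0.07), Atp13a2, Nrp2, Phlda3 and Ifitm2.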

How the data were processed

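RNA-seq was performed on 4 allografts. The authors deposited 1 table per library of raw read counts per gene, without normalization. Per the labels, STAR 2.6.1c, featureCounts and mm10 were used, and the alignment names in the file headers point to uniquely placed reads. The annotation release and strand setting are not given in the sources used here. Another column of the deposited tables holds summed exon length in bases. Total counts were between 16487902 and 19589339 per library. Odd values made up 17.9% to 23.9% of the counts from 1 to 20, so both mates of a pair appear to be counted, and floors of 3 counts (0.153 to 0.182 CPM) cover counting error only and are too low. No exon of a member overlaps another gene.

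Genes were kept with filterByExpr (minimum count 10), which left 13669. TMM scaling and the robust quasi-likelihood test of edgeR 4.0.16 (R 4.3.3) compared TAK-931 with vehicle, two-sided, with Benjamini-Hochberg adjustment over all genes and a threshold of 0.05. The SE is the log2 fold change divided by the square root of F. An exact permutation test of 2 against 2 libraries cannot reach 0.05 and was not used. CPM in the text uses the total of gene counts, and relative levels add 0.1 CPM. Counts of this design were simulated with changes of a single size, smaller than the fitted changes of the members, and the same spread in both groups. The test recovered nearly all of these changes at a low spread between replicates and few at a spread like the common one here. True changes of that size can thus miss the adjusted threshold. Recovery of changes like those of the members, with unequal spread in the groups, was not simulated. Named genes were the members, at most 4 genes of highest mean CPM in each further list, reference markers and the 5 nearest profiles. The alternatives were other scalings and filters, a replicate block, each library left out, DESeq2 1.42.0, limma-voom (limma 3.58.1), halved counts and an adjusted p under 0.01. The members and lists were chosen with earlier results of these data known. Ly6g was not in the tables. The values of 1 regulator are not reported here, though the counts over the lists include it. p-values measure the spread between these samples, which the labels name as separate allografts.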

Additional observations from a re-analysis of the deposited data

How the results depend on the processing

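All 9 members kept a positive log2 fold change under every alternative run. With DESeq2's size factors, scaling by totals alone, no filter, at least 10 counts in every library, halved counts, limma-voom and an adjusted p under 0.01, no member, no other complement gene and no gene at all was called by edgeR or limma. DESeq2 called 1411 genes, 9 members and 10 other complement genes, with log2 fold changes of 3.16 (C1qa), 3.46 (C1qb), 3.35 (C1qc), 3.73 (C3), 2.83 (C4b), 3.51 (Cfb), 2.51 (Cfp), 4.16 (C3ar1) and 2.22 (C5ar1). The replicate block called 144 genes, 2 members (C3 at 3.47 and Cfb at 3.19) and 1 other complement gene (C2). Deviations of same-numbered libraries correlated at 0.004, so with 2 libraries per group the numbers were not taken as pairs. The cause of these differences was not tested.

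Leaving out 1 library each gave between 0 and 8424 genes, 0 and 9 members and 0 and 20 other complement genes called. Without TAK-931-1 these counts were 3996, 6 and 12, and the highest counts came without TAK-931-2. The lone library of a group is then assumed to vary like the other group. Calls over all genes rose in the same fits as calls of complement genes. None of these counts is therefore read as a result about complement. Log2 fold changes ranged from 1.61 to 3.81 (C1qa), 1.67 to 4.16 (C1qb), 1.57 to 4.04 (C1qc), 2.44 to 4.32 (C3), 1.47 to 3.43 (C4b), 1.96 to 4.16 (Cfb), 0.84 to 3.18 (Cfp), 2.42 to 4.84 (C3ar1) and 0.81 to 2.83 (C5ar1), lowest without TAK-931-1 and highest without TAK-931-2. The log2 difference of C1q relative to macrophage markers was between 0.21 and 0.64 with 1 library left out, and 0.17 against Adgre1 and Csf1r alone.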
